A study of Bos taurus with 16 samples.

Results

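The genes described are 37 that mark or serve neutrophils, monocytes and macrophages, taken by symbol: every array probe whose gene name equalled one of the 37 symbols was used, and the probes of a gene were averaged. Probes were found for 32 of them, 59 probes among the 46615 of the array and 32 genes among its 26554 gene names. A single probe stood for 12 genes and several probes for 20. No probe carried the names FCGR2B, ADAM8, MARCO, FPR1 or FPR2. The receptor gene FCGR2B was found under the older name FCGR2, and 3 probes described as similar to ADAM8 carried only a transcript identifier. Those probes are given apart from the 32. The other 3 genes are not analysed here.

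RNA of circulating white blood cells (WBC) and of endometrial biopsies was measured in 8 multiparous Holstein cows at 45 to 55 days post-partum, with 1 one-colour array for each sample and 16 arrays in all. The 4 cows with subclinical endometritis (SCE; cows 718, 833, 836 and 846) showed inflammation on uterine histology and no clinical signs. The 4 healthy cows (841, 850, 877 and 883) had neither. Histology scored the abundance of granulocytes, lymphocytes, macrophages and plasma cells, so the status of a cow was itself set with leukocytes of the endometrium in view. WBC RNA came from whole blood drawn into PAXgene tubes, and endometrial RNA from a transcervical biopsy that holds epithelium, stroma, vessels and leukocytes together. Both groups mixed follicular and luteal cows, but not equally. By the paper, 1 of the 4 SCE cows was follicular and the others luteal, while the healthy cows were split evenly. The paper also reports that stage affected several endometrial genes in healthy cows. The stage was not tied to single cows in the labels used here, so its part in the differences was not tested. In a larger set of its cows, the paper reports higher blood counts of leucocytes, lymphoid cells and monocytes with SCE. The labels used here give no cell counts, so the part of blood composition in the WBC values was not tested either. The question put to the genes was which of them rise in the tissue of SCE cows without rising in their blood.

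Neutrophils and monocytes arise in the bone marrow, circulate, and enter inflamed tissue along adhesion molecules and chemotactic gradients. In tissue, monocytes become macrophages, which carry scavenger and Fc receptors and clear debris. After calving the bovine uterus is cleared by an influx of neutrophils, and a lasting presence of these cells is a sign of endometritis. The growth factor receptors, the transcription factors PU.1 and C/EBP, the NADPH oxidase and the leukotriene pathway are all used by these cells at different stages of their life.

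The array reads each gene through synthetic strands of 60 bases. The strands of FCGR1A, MRC1 and MSR1 are shown first, since these genes had the largest mean excess of endometrium over WBC while most members were lower in endometrium. The pair for FCGR1A lies 1 base apart on the minus strand of chromosome 3 (chr3:22402102-22402161 and chr3:22402103-22402162, in the build HGSC Btau_3.1 named in the file headers). The strands share 59 positions, of which 55 are identical, and capitals mark the 4 that differ.
FCGR1A A_73_114796: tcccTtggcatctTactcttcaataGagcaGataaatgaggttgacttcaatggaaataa
FCGR1A A_73_P110501: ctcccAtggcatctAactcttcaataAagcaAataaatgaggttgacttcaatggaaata
The MRC1 strands (chr13:32213377-32213436 and chr13:32209930-32210556, the latter across a gap) and the MSR1 strands (chr27:22902421-22902480 and chr27:22940613-22940672) do not overlap.
MRC1 A_73_P073746: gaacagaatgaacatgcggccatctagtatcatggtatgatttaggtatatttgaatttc
MRC1 A_73_P147521: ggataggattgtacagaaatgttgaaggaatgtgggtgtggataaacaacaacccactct
MSR1 A_73_102799: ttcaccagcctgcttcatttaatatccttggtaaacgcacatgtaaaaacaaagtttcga
MSR1 A_73_115241: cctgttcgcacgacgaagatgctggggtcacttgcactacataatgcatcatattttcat

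FCGR3A was the only member past the unadjusted test between SCE and healthy cows, in WBC, and CSF3R had the largest difference between the tissues. FCGR3A was read by 3 strands. The first and the third overlap by 55 bases, of which 54 are identical, and the capital marks the base that differs.
FCGR3A A_73_102350: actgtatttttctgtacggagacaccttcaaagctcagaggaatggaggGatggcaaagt
FCGR3A A_73_104690: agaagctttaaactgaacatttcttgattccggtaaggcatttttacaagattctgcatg
FCGR3A A_73_P032171: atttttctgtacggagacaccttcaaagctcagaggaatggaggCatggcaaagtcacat
CSF3R A_73_108368: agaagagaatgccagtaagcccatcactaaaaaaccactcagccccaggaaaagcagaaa
MPO and ALOX5AP are shown because the probes of each gene gave unlike tissue differences. The second ALOX5AP strand was read from the plus strand of chromosome 12 and the first from the minus strand.
MPO A_73_113406: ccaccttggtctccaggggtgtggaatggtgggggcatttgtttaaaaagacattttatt
MPO A_73_114216: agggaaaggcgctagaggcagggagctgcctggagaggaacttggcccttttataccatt
ALOX5AP A_73_P048031: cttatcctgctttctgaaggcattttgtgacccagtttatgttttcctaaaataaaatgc
ALOX5AP A_73_P119496: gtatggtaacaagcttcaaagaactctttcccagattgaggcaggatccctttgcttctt

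Values are log2 spot intensities after quantile normalization over the 16 arrays, so that a difference of 1 is a 2-fold change, and they compare arrays within a gene, not genes with each other. The share of spots that the scanner software called well above background was 64.7% to 79.8% on single arrays. WBC and endometrium were hybridised on separate slides, 1 for each tissue, and a difference between tissues cannot be told apart from one between slides. Each row of a slide held 2 SCE and 2 healthy cows. The labelled tissues matched their defining markers: PTPRC, CORO1A and LCP1, carried by all leukocytes, differed by -4.35, -6.32 and -4.92 in endometrium against WBC, and the collagen gene COL3A1 by 9.57. The endometrium array of SCE cow 833 stood apart. Its median signal above background was 79, against 248 to 316 on the other 7 endometrium arrays, and its share of spots well above background was the lowest (64.7%). Its summed endothelial marker intensity was 23240, against 3909 to 6541 in the other 7 cows. Its erythroid sum was 95412 against 21930 to 37099, and its stromal sum 39561 against 98453 to 261960. Whether the biopsy or the array set it apart was not tested. The WBC array of SCE cow 833 also stood apart from the other WBC arrays. Its median signal above background was 202.5, against 83 to 132 on the other 7, and its share of spots well above background was the highest in WBC (75.8%). Its median absolute deviation from the WBC mean over all gene names was 0.222, against 0.100 to 0.180 in the other 7 cows. The cause was not tested.

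No myeloid gene passed the adjusted test between SCE and healthy cows in either tissue. In the endometrium 17 of the 32 members had a higher mean in SCE than in healthy cows and 15 a lower one, and the median difference was 0.01 (all gene names 0.0022). In WBC 15 had a higher and 17 a lower mean, and the median difference was -0.06 (all gene names -0.0081). Both medians changed sign with single cows: the endometrial one ran from -0.11 without SCE cow 718 to 0.10 without SCE cow 836, and that of WBC from -0.10 without SCE cow 846 to 0.030 without SCE cow 833. Differences were tested with TREAT of limma against a threshold of 1.2-fold, with p-values adjusted over all gene names by the Benjamini-Hochberg method. In this test 0 of 26361 gene names passed in the endometrium (0%) and 0 of 26431 in WBC (0%). Without adjustment, 0 members passed in the endometrium, where 0.376% of all gene names did, and 1 member in WBC, where 0.0908% did. Nor did any member part the 4 SCE from the 4 healthy cows. Of all gene names, 0.725% did so with SCE higher and 0.774% with SCE lower in the endometrium, 1.5% together, and 0.583% and 0.749% in WBC, 1.33% together. RNA of a whole biopsy or of whole blood cannot tell fewer cells of a type from less RNA in each cell.

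With 4 cows per group, sizeable differences were within the error. The 95% confidence interval of the endometrial difference stayed below 1, a 2-fold rise, for 27 of the 32 members, and its upper end reached 1.54 for LGALS3. In WBC the interval stayed below 1 for 30 members. Within a group, the SD of a member had a median of 0.33 in the endometrium and 0.25 in WBC, and it was larger in the endometrium for 22 members. By the two-sided exact permutation test over cows, for which 0.0286 is the smallest p that 4 against 4 can give, the smallest p of any member was 0.257 in the endometrium and 0.0571 in WBC. The 95% intervals of the members in both tissues show how few of them clear 0.

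**Figure D1:**
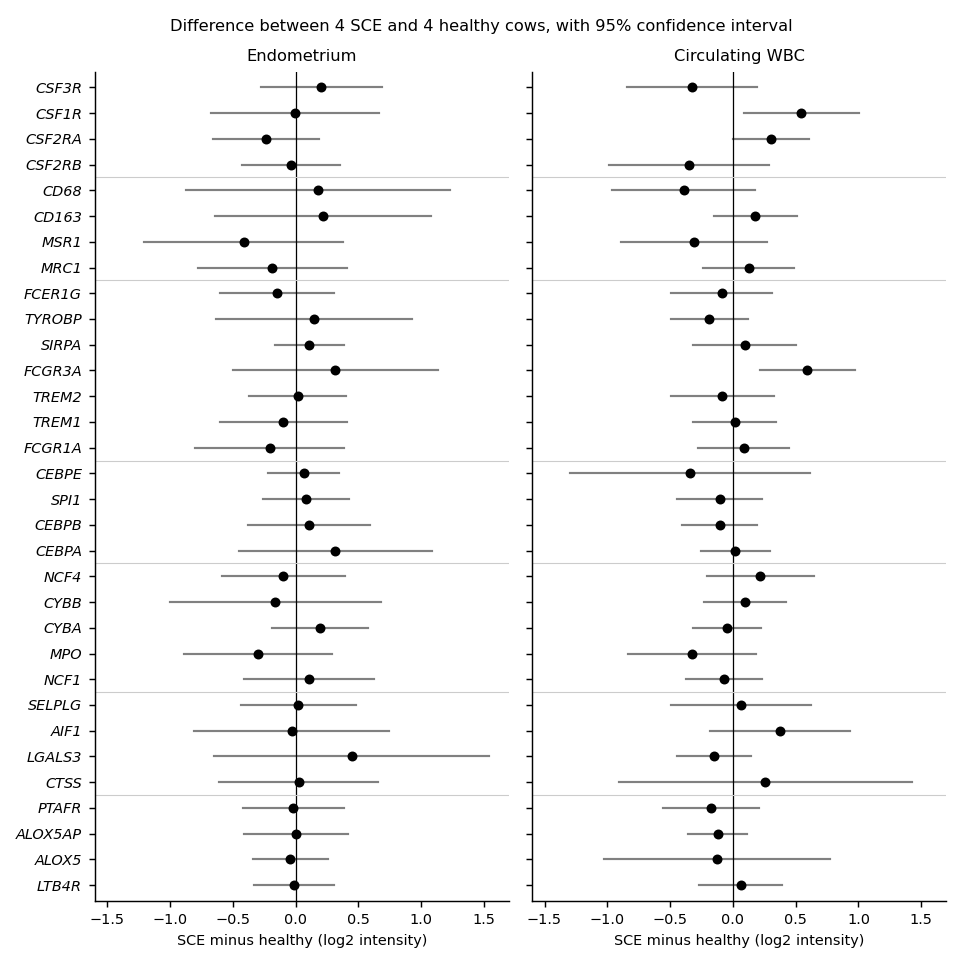
Difference between SCE and healthy cows for the 32 genes (log2 intensity, SCE minus healthy), in endometrium and in circulating WBC, with points for the difference and bars for the 95% confidence interval of the limma fit on 8 arrays per tissue. In WBC the intervals of FCGR3A and CSF1R lie above 0, and in the endometrium every interval spans 0.

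The pattern asked for, higher in tissue and not in blood, was tested as the difference of the SCE effect between the tissues. No member passed, with or without adjustment (0% adjusted and 0.38% unadjusted over 26296 gene names). By sign alone, 11 members were higher in SCE endometrium and lower in SCE blood, 6 were higher in both, 9 were lower in endometrium and higher in blood, and 6 were lower in both. The largest differences toward tissue were those of LGALS3 (0.60), CD68 (0.57) and CSF3R (0.53), and the largest toward blood those of CSF1R (-0.55), CSF2RA (-0.54) and AIF1 (-0.41). Leaving out single cows moved them widely, to 0.24 (without SCE cow 718) and 1.01 (without SCE cow 836) for LGALS3, 0.23 (718) and 0.86 (healthy cow 841) for CD68, -0.79 (718) and -0.22 (841) for CSF1R, and -0.66 (SCE cow 846) and -0.05 (836) for AIF1, so that their order is not firm. CSF3R ran from 0.41 to 0.73 and CSF2RA from -0.65 to -0.39. CSF2RA was the only member at the smallest exact permutation p (0.0286), and it did not pass TREAT (unadjusted p = 0.127). Under random labels 0.0286 is also the share of genes that reach this p, so 1 of 32 members is near what chance gives.

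The growth factor receptors receive the signals under which myeloid cells survive and mature. CSF1R, the receptor of macrophages and their precursors, measured 10.82, 11.55, 11.41 and 11.73 in WBC of healthy cows 841, 850, 877 and 883, and 11.74, 12.02, 11.72 and 12.21 in WBC of SCE cows 718, 833, 836 and 846, the order kept for all genes. SCE cow 836 lay just below the highest healthy cow, and the other SCE cows lay above all healthy cows. The difference was 0.54 (95% confidence interval 0.086 to 1.002; exact permutation p = 0.0571), with 0.69 in the first slide row and 0.39 in the second, and it was 0.36 without healthy cow 841. It did not pass TREAT with or without adjustment (adjusted p = 1). In endometrium the values were 9.63, 8.66, 9.25 and 9.28 in healthy and 9.74, 9.36, 8.50 and 9.21 in SCE cows, with the groups interleaved and a difference of -0.01 (-0.68 to 0.67).

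CSF2RA, a chain of the GM-CSF receptor, measured 10.19, 10.42, 10.55 and 10.63 in healthy and 10.96, 10.56, 10.78 and 10.71 in SCE WBC. Only SCE cow 833 lay within the healthy range. In endometrium the order was turned, with 8.48, 7.92, 8.27 and 8.46 in healthy and 8.29, 7.69, 8.23 and 7.96 in SCE cows, and the ranges overlapped. The differences were 0.30 in WBC (-0.003 to 0.61) and -0.24 in endometrium (-0.66 to 0.18), and the difference between the tissues was -0.54 (-1.04 to -0.05). Its sign was the same in each slide row, with 0.45 and 0.15 in WBC and -0.21 and -0.27 in endometrium.

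CSF3R, the G-CSF receptor of neutrophils, measured 13.69, 14.20, 14.45 and 14.58 in healthy and 14.34, 13.70, 13.55 and 14.02 in SCE WBC. In endometrium it measured 6.42, 6.10, 6.61 and 6.37 in healthy and 7.06, 6.69, 6.45 and 6.11 in SCE cows. The groups overlapped in both tissues (WBC difference -0.33, -0.85 to 0.19; endometrium 0.20, -0.28 to 0.69). Of the endometrium arrays, 3 healthy and 2 SCE read this probe well above background. CSF2RB, the shared signalling chain of the GM-CSF receptor, was well above background on 2 of the 16 arrays, both of WBC. It measured 6.17, 6.27, 6.28 and 7.55 in healthy and 6.22, 6.33, 6.04 and 6.28 in SCE WBC. The WBC difference of -0.35 rested on healthy cow 883 and was -0.02 without that cow. In endometrium it measured 5.57, 6.04, 5.43 and 5.63 in healthy and 5.66, 5.42, 5.92 and 5.52 in SCE cows.

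The macrophage surface genes showed no common direction with SCE. CD68, a lysosomal glycoprotein of macrophages, measured 9.47, 9.30, 9.51 and 8.56 in healthy and 10.72, 8.88, 8.55 and 9.41 in SCE endometrium. The highest and the lowest value both belonged to SCE cows, 718 and 836. In WBC it measured 11.46, 12.02, 12.53 and 12.30 in healthy and 11.99, 11.23, 11.54 and 11.99 in SCE cows, with overlap. The differences were 0.18 in endometrium (-0.87 to 1.23) and -0.39 in WBC (-0.96 to 0.18).

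MSR1, a scavenger receptor for modified lipoproteins, measured 8.03, 7.84, 8.02 and 7.41 in healthy and 8.37, 6.91, 6.79 and 7.57 in SCE endometrium, a difference of -0.41 (-1.21 to 0.38). SCE cow 718 held the highest value and the other SCE cows lay below 3 of the 4 healthy cows. Without cow 718 the difference was -0.74, past unadjusted TREAT and not past it after adjustment (adjusted p = 1). In WBC the values were 6.95, 7.52, 7.52 and 6.44 in healthy and 6.93, 7.09, 6.37 and 6.79 in SCE cows (difference -0.31, -0.89 to 0.27). CD163, the haemoglobin scavenger receptor, differed by 0.22 in endometrium (-0.64 to 1.08) and by 0.18 in WBC (-0.15 to 0.51). Its endometrium values lay between 5.78 and 6.54 in all cows but SCE cow 833, at 7.66.

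The Fc receptors bind antibody-coated particles, and they were grouped with the TREM receptors and the adaptors FCER1G and TYROBP. FCGR3A, the low-affinity Fc receptor CD16, measured 10.36, 10.98, 10.54 and 10.38 in healthy and 11.26, 11.30, 11.22 and 10.85 in SCE WBC. A single healthy cow, 850, lay above the lowest SCE cow, 846. The group means were 10.57 ± 0.29 and 11.16 ± 0.21 (SD, n = 4 each). The difference of 0.59, or 1.51-fold (0.21 to 0.97), was the only one past unadjusted TREAT (p = 0.0409), it did not pass after adjustment (adjusted p = 1), and the exact permutation p was 0.0571. It was 0.61 and 0.57 in the 2 slide rows, and 0.55 to 0.67 over its 3 probes. Leaving out single cows gave 0.52 to 0.73, and unadjusted TREAT was passed without healthy cow 850 or SCE cow 846 and was no longer passed without any one of healthy cows 841, 877 and 883 or SCE cows 718, 833 and 836.

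In endometrium FCGR3A measured 7.55, 7.93, 8.18 and 7.46 in healthy and 9.14, 7.98, 7.41 and 7.84 in SCE cows. SCE cow 718 lay far above the other cows and SCE cow 836 lay below all others. The difference of 0.31 (-0.50 to 1.13) was -0.03 without cow 718. FCGR1A, the high-affinity Fc receptor CD64, differed by -0.21 in endometrium (-0.80 to 0.38) and by 0.09 in WBC (-0.28 to 0.45). The adaptors FCER1G (-0.15 and -0.09) and TYROBP (0.15 and -0.19), the receptors TREM1 (-0.10 and 0.01) and TREM2 (0.02 and -0.08), and SIRPA, which binds the signal CD47 on other cells (0.11 and 0.09), had differences in endometrium and WBC whose intervals all spanned 0.

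No transcription factor of the myeloid line passed the test in either tissue. CEBPA, needed to form granulocyte and monocyte precursors, measured 11.24, 11.36, 11.56 and 11.39 in healthy and 11.60, 12.76, 11.00 and 11.46 in SCE endometrium. Its difference of 0.32 (-0.45 to 1.08) rested on SCE cow 833, whose endometrium array stood apart, and was -0.04 without that cow. In WBC it measured 12.23, 12.12, 12.29 and 12.28 in healthy and 12.37, 12.03, 12.17 and 12.43 in SCE cows (0.02, -0.25 to 0.29).

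CEBPE, which drives the late stages of granulocyte formation, measured 11.93, 10.05, 10.20 and 10.36 in healthy and 9.59, 10.97, 10.19 and 10.43 in SCE WBC. Healthy cow 841 held the highest value, and the difference of -0.34 (-1.30 to 0.61) was 0.09 without that cow. In endometrium the probe was well above background on none of the 8 arrays, at 5.77, 5.79, 5.85 and 5.68 in healthy and 5.72, 5.62, 6.05 and 5.95 in SCE cows. CEBPB, an activator of inflammatory genes, and SPI1, which encodes PU.1, differed by 0.11 and 0.08 in endometrium and by -0.11 and -0.10 in WBC.

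The oxidative burst genes make the reactive oxygen with which phagocytes kill. MPO, the peroxidase of neutrophil granules, measured 7.82, 8.32, 8.77 and 8.22 in healthy and 8.12, 7.51, 7.84 and 8.47 in SCE endometrium. In WBC it measured 11.12, 10.34, 10.51 and 10.47 in healthy and 9.86, 10.79, 10.13 and 10.36 in SCE cows. The difference was -0.30 in endometrium (-0.89 to 0.29) and -0.33 in WBC (-0.84 to 0.19), with overlap in both. Its sign was the same in every slide row. The endometrial difference rested on the first MPO probe (-0.58). The second gave -0.02 there and was well above background on no endometrium array. In WBC the probes gave -0.23 and -0.42. Healthy cow 841 was highest in WBC for MPO as well as for CEBPE, both genes of immature granulocytes. The oxidase subunits CYBA and CYBB of the membrane and NCF1 and NCF4 of the cytosol differed by 0.19, -0.16, 0.11 and -0.10 in endometrium and by -0.05, 0.10, -0.07 and 0.22 in WBC, and none passed the test.

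Among the adhesion, protease and lysosome genes, LGALS3, a lectin of macrophages that epithelium also makes, measured 11.76, 11.95, 12.39 and 11.30 in healthy and 13.49, 12.31, 11.03 and 12.34 in SCE endometrium. The difference of 0.45 was the largest of the members in this tissue, with an interval from -0.65 to 1.54. It was 0.05 without SCE cow 718 and 0.87 without SCE cow 836. In WBC it measured 12.97, 12.88, 13.18 and 13.35 in healthy and 13.08, 12.91, 12.92 and 12.87 in SCE cows, a difference of -0.15 (-0.44 to 0.14). AIF1, an actin-binding protein of macrophages and monocytes, measured 13.35, 13.36, 13.07 and 12.75 in healthy and 14.08, 13.31, 13.72 and 12.91 in SCE WBC (0.37, -0.19 to 0.93), a difference of 0.18 without SCE cow 718 and of 0.57 without SCE cow 846. In endometrium it measured 10.57, 9.93, 10.72 and 9.86 in healthy and 10.87, 10.31, 9.36 and 10.40 in SCE cows (-0.03, -0.81 to 0.75). The lowest and highest endometrium values of AIF1 were again those of SCE cows 836 and 718.

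SELPLG, the ligand by which leukocytes roll on selectins, and CTSS, a protease of antigen-presenting cells, differed by 0.02 each in endometrium and by 0.06 and 0.26 in WBC. CTSS varied widely in SCE WBC, from 11.28 in cow 846 to 14.21 in cow 833, whose WBC array stood apart. The lipid mediator genes had the smallest endometrial differences of any group of members when probes were averaged. ALOX5 and ALOX5AP, which start leukotriene synthesis, LTB4R, the leukotriene receptor that draws neutrophils, and PTAFR, the receptor of platelet-activating factor, lay between -0.04 and 0.004 in endometrium and between -0.17 and 0.06 in WBC. The endometrial differences of the 2 probes had opposite signs for ALOX5 (-0.16 and 0.08), ALOX5AP (-0.09 and 0.10) and PTAFR (-0.15 and 0.11). The positive probe of each pair was well above background on no endometrium array, so the small means rest in part on averaging. The values by array show the overlap of the groups for the 12 genes with the largest differences.

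**Figure D2:**
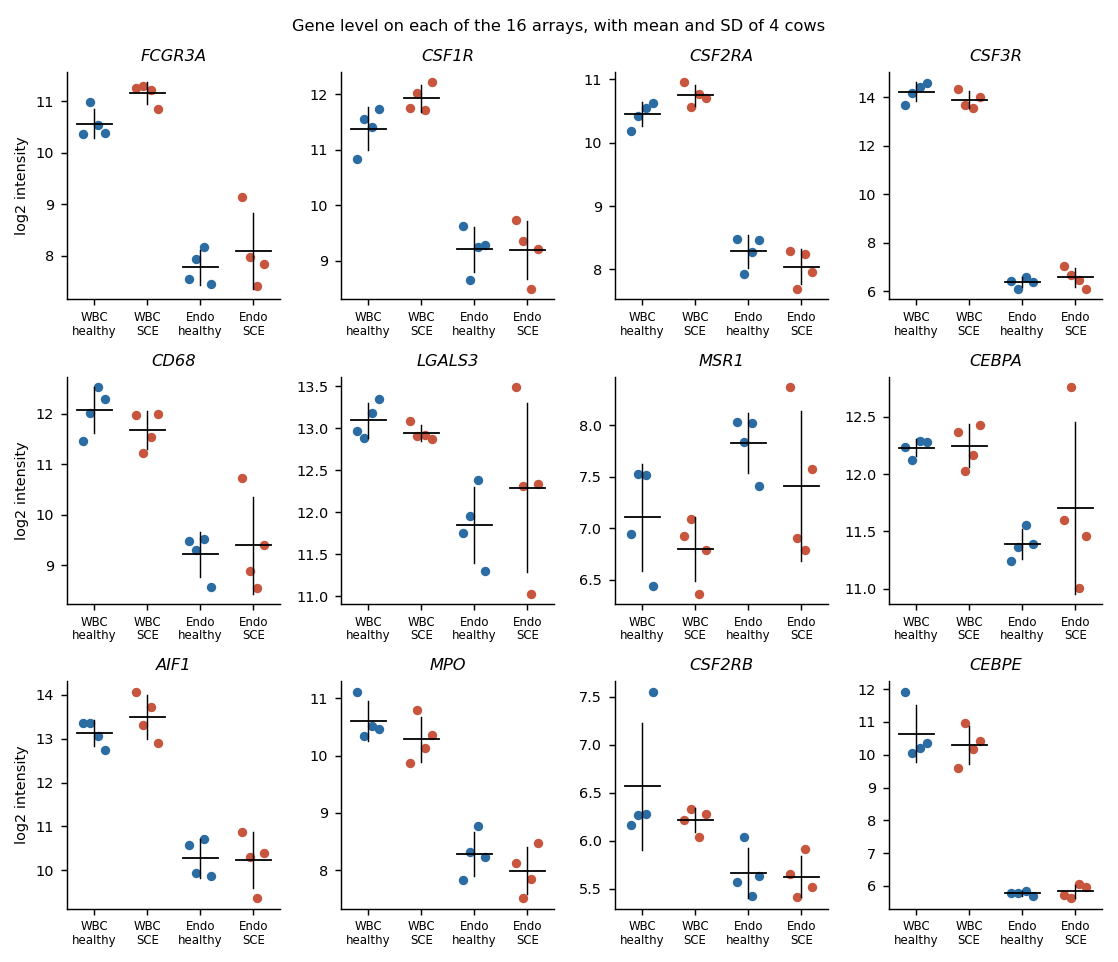
Normalized log2 intensity of 12 genes on each of the 16 arrays, with the 4 groups WBC and endometrium of healthy and SCE cows on the horizontal axis, 1 dot per cow, and the mean and SD of 4 cows. In WBC, FCGR3A and CSF1R are higher in most SCE cows, and in endometrium single SCE cows lie far above (LGALS3, FCGR3A, CD68) or below the rest.

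Under other names, the 3 FCGR2 probes, assigned to FCGR2B by their RefSeq accession, differed by -0.03 in endometrium (-0.53 to 0.47) and by -0.03 in WBC (-0.62 to 0.56). This gene is the inhibitory Fc receptor. The probes described as similar to ADAM8, a metalloprotease of leukocytes, differed by -0.27 (-0.70 to 0.16) and by -0.07 (-0.46 to 0.31). Both had lower means in endometrium than in WBC, with differences of -2.67 and -3.34.

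In the endometrium, single cows held many members high or low at once. SCE cow 718 held the highest endometrium value for 16 of the 32 members, and SCE cow 836 the lowest for 17. Relative to the mean of the 8 cows, the members had a median deviation of 0.28 in cow 718, where 23 lay above the mean, and of -0.28 in cow 836, where 5 did. Healthy cows 877 and 841 lay above the mean for 27 and 21 members, and healthy cows 850 and 883 for 7 and 8. SCE cow 833 was highest for 7 members and lowest for 8. SCE cow 846 was neither highest nor lowest for any.

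The leukocyte and T cell markers were high in cow 718, and the B cell markers were not. The summed intensity of PTPRC, CORO1A and LCP1 was 2094 in its endometrium, against 1103 to 1441 in the other 7 cows, and it was highest for 3 of the 3 markers. Its T cell sum was 3825, against 1975 to 3259, and it was highest for 5 of the 7 summed T cell markers. Its B cell sum was 5381, within the 5057 to 8360 of the other cows, and it was highest for 0 of the 4 B cell markers. Cow 836 did not hold the lowest leukocyte sum: it read 1291, between the others. Its epithelial sum of 33585 and its smooth muscle sum of 165110 were the highest of the 8, and it was highest for 3 of 7 and 2 of 6 of these markers. Healthy cow 841, above the mean for 21 members, had nearly as high sums (32774 and 142900), so these sums were not particular to cow 836. The part of these markers in the values of the members was not tested.

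The slide rows of the endometrium gave opposite signs. In the first row, with SCE cows 718 and 833 and healthy cows 841 and 850, 23 of 32 members had a higher mean in SCE cows, the median difference was 0.15, and 50.4% of all gene names were higher. In the second row, with SCE cows 836 and 846 and healthy cows 877 and 883, 6 members had a higher and 26 a lower mean, the median was -0.19, and 47.3% of all gene names were higher. Positive in the first row and negative in the second were 22 members. Higher in SCE cows in both rows was 1 member, SIRPA, and lower in both were 4: CSF2RA, MSR1, MPO and CYBB. In WBC 9 members were higher in both rows and 7 lower in both. These rows hold different cows, so that row and cow cannot be told apart. The map of deviations by cow shows these columns beside those of WBC.

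**Figure D3:**
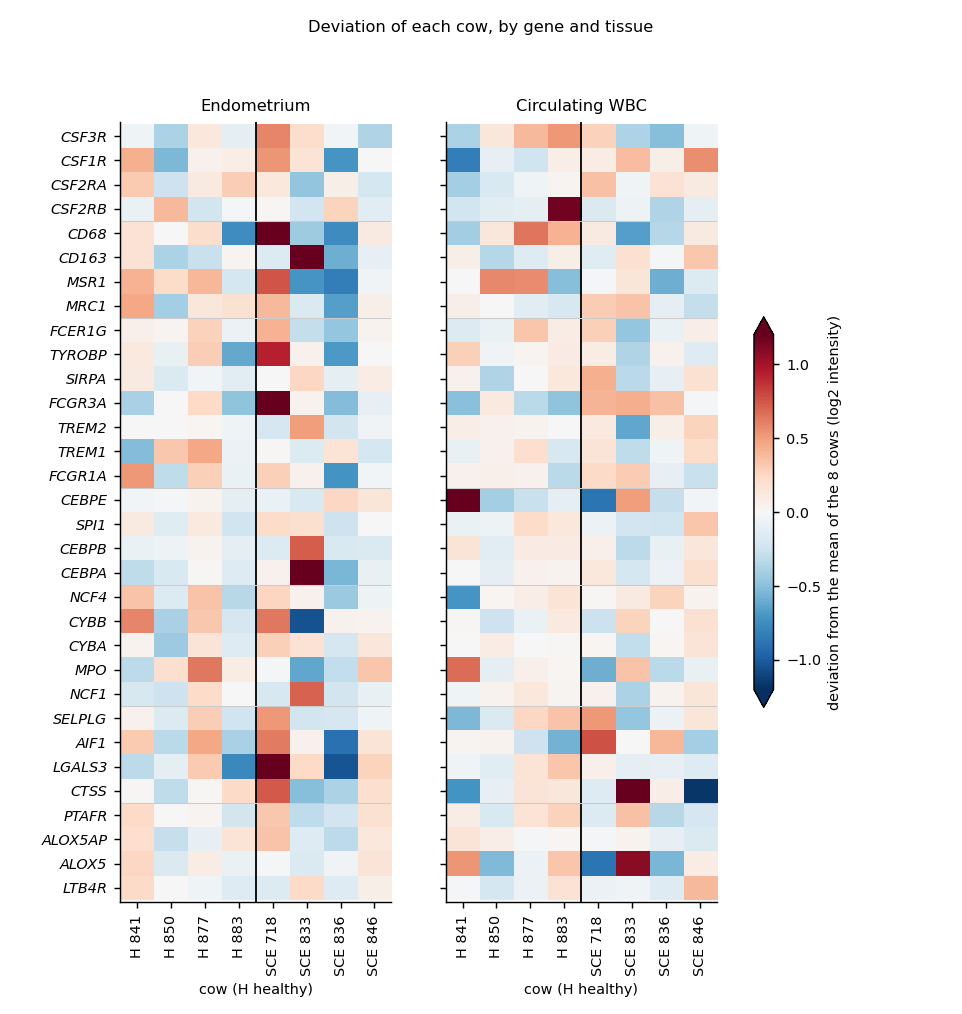
Deviation of each gene from its mean over the 8 cows (log2 intensity, red above and blue below, colour scale from -1.2 to 1.2), with genes in rows and cows in columns, for endometrium and for WBC. Endometrium of SCE cow 718 lies above the mean for 23 of the 32 genes and that of SCE cow 836 below it for 27, and in WBC between 11 and 24 genes lie above the mean in each cow.

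Between the tissues the differences were far larger than between the groups of cows. In the 4-group model over 16 arrays, 28 of the 32 members were lower in endometrium than in WBC, where 30.5% of all gene names were, and 2 were higher, where 22.4% were (52.8% together). The median difference of the members was -2.44, against -0.15 over all gene names. With each tissue normalized by itself the median over all gene names was 0.33, with 41% higher and 10.2% lower, and 23 members were lower and 3 higher. With the signal scaled to the 75th percentile that median was -0.41, with 22.9% higher and 36.5% lower, and 28 members were lower and 3 higher. All 8 endometrium values lay below all 8 WBC values for 24 members and above them for 1, FCGR1A, and the tissues overlapped for 7. In healthy cows alone 28 members were lower and 2 higher (26.4% and 19.3% of all gene names, 45.8% together), and in SCE cows alone 25 were lower and 1 higher (24.9% and 19.1%, 43.9% together).

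CSF3R had the largest difference, with WBC values from 13.55 to 14.58 and endometrium values from 6.10 to 7.06. It was 193-fold lower in endometrium by measured intensity (-7.59 ± 0.17 SE, adjusted p = 2.3e-14), from -8.22 to -7.00 in single cows, with 3 healthy and 2 SCE endometrium arrays well above background and the other 3 not. NCF4, a cytosolic subunit of the oxidase, followed at -5.54, then SELPLG at -5.18, FCER1G at -5.09, CYBB and CEBPE at -4.66, TYROBP at -4.63 and SPI1 at -4.17. CEBPE was well above background on every WBC array and on no endometrium array, which made it at least 24.9-fold higher in WBC. SIRPA was not well above background in SCE endometrium and was at least 7.92-fold higher in SCE WBC. CSF2RB was well above background on 2 of the 8 WBC arrays and on no endometrium array, so that no size is given for its difference. The other members that were lower in endometrium ranged from -3.12 (CYBA) to -0.69 (CEBPA). The lower end of that range depended on the scaling: CEBPA, CEBPB, CSF2RB and LGALS3 no longer passed, and LTB4R turned from -0.95 to 0.04, when each tissue was normalized by itself. CEBPA also no longer passed without any one cow other than SCE cow 833 (adjusted p = 0.0535 to 0.101), nor did LGALS3 without healthy cow 883 (adjusted p = 0.0693).

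FCGR1A and MRC1 were higher in endometrium, and they were named after their values were seen. FCGR1A measured 8.17, 7.34, 7.93 and 7.57 in healthy and 7.94, 7.70, 6.93 and 7.62 in SCE endometrium, and 6.03, 6.04, 6.03 and 5.65 in healthy and 6.21, 6.28, 5.89 and 5.71 in SCE WBC. All 8 cows were higher in endometrium, by 1.05 to 2.15, and the difference was 1.67 ± 0.16 (SE, adjusted p = 7.3e-07). On the healthy WBC arrays it was not well above background, so that in healthy cows it was at least 3.45-fold higher in endometrium. Its 2 probes, 1 base apart, gave 1.14 and 2.20.

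MRC1, the mannose receptor of tissue macrophages, measured 7.36, 6.49, 7.03 and 7.08 in healthy and 7.29, 6.73, 6.24 and 6.97 in SCE endometrium. In WBC it measured 6.28, 6.22, 6.09 and 6.02 in healthy and 6.52, 6.56, 6.10 and 5.93 in SCE cows. All 8 cows were higher in endometrium, by 0.14 to 1.08, while the ranges of the tissues overlapped. The difference was 0.68 ± 0.16 (SE, adjusted p = 0.019), and it no longer passed without healthy cow 883 (0.64, adjusted p = 0.0552) or without SCE cow 846 (0.60, adjusted p = 0.0707). One probe gave 1.19 and the other, well above background on 4 of the 16 arrays, gave 0.17. MSR1 was higher in endometrium in 7 of the 8 cows, all but SCE cow 833, with a difference of 0.67 ± 0.23 (SE) that did not pass (adjusted p = 0.088). With the cow as a block it passed (adjusted p = 0.0456), as it did when each tissue was normalized by itself (1.41, adjusted p = 0.000251). With the same block CEBPA no longer passed (adjusted p = 0.0527). CTSS differed by 0.04 (-0.65 to 0.73), with 4 cows higher in each tissue. The plot of differences within single cows shows these 4 genes beside the rest.

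**Figure D4:**
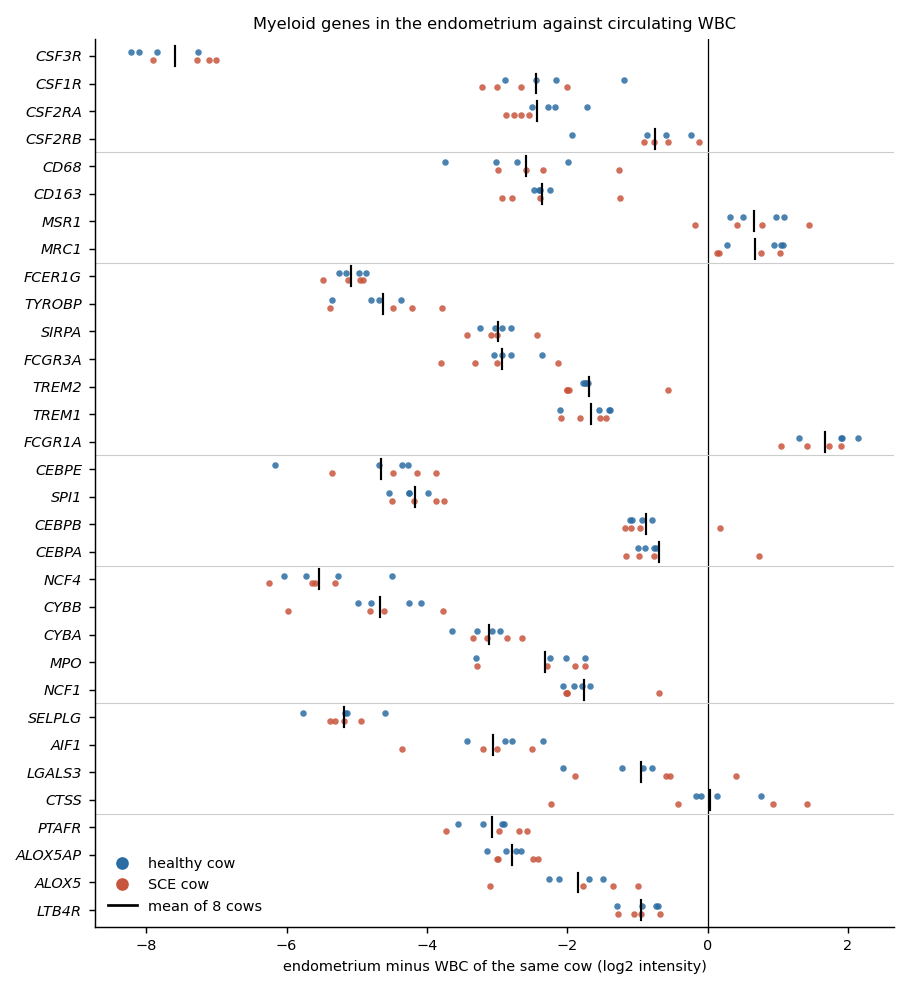
Endometrium minus WBC within each cow (log2 intensity) for the 32 genes, with 1 point per cow (blue healthy, red SCE) and a bar at the mean of 8 cows. FCGR1A and MRC1 lie above 0 in all 8 cows, MSR1 in 7 and CTSS in 4, and CSF3R lies lowest, between -8.22 and -7.00.

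The direction of the tissue difference was shared by all probes of a gene for 19 of the 20 genes with several probes, and CTSS was the exception (0.23 and -0.14). Its size was not. The MPO probes gave -0.79 and -3.83, and the ALOX5AP probes -5.49 and -0.08. The latter ALOX5AP probe, read from the opposite strand, was well above background on no array. The second MPO probe was well above background on all 8 WBC arrays and on no endometrium array, whereas the first was so on all 16. The value of either gene is the mean of such unlike probes, and with the brightest probe alone MPO no longer passed (-0.79, adjusted p = 0.0581). For the difference between SCE and healthy cows, the probes shared a sign in 11 of the 20 genes in endometrium and in 16 in WBC. None of the 59 probes passed unadjusted TREAT in endometrium, where 0.451% of all probes did, and 3 did in WBC, where 0.123% did. Of these, 1 belonged to CSF1R and the others were the overlapping pair of FCGR3A, which share most of their bases and are not separate readings.

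**Figure D5:**
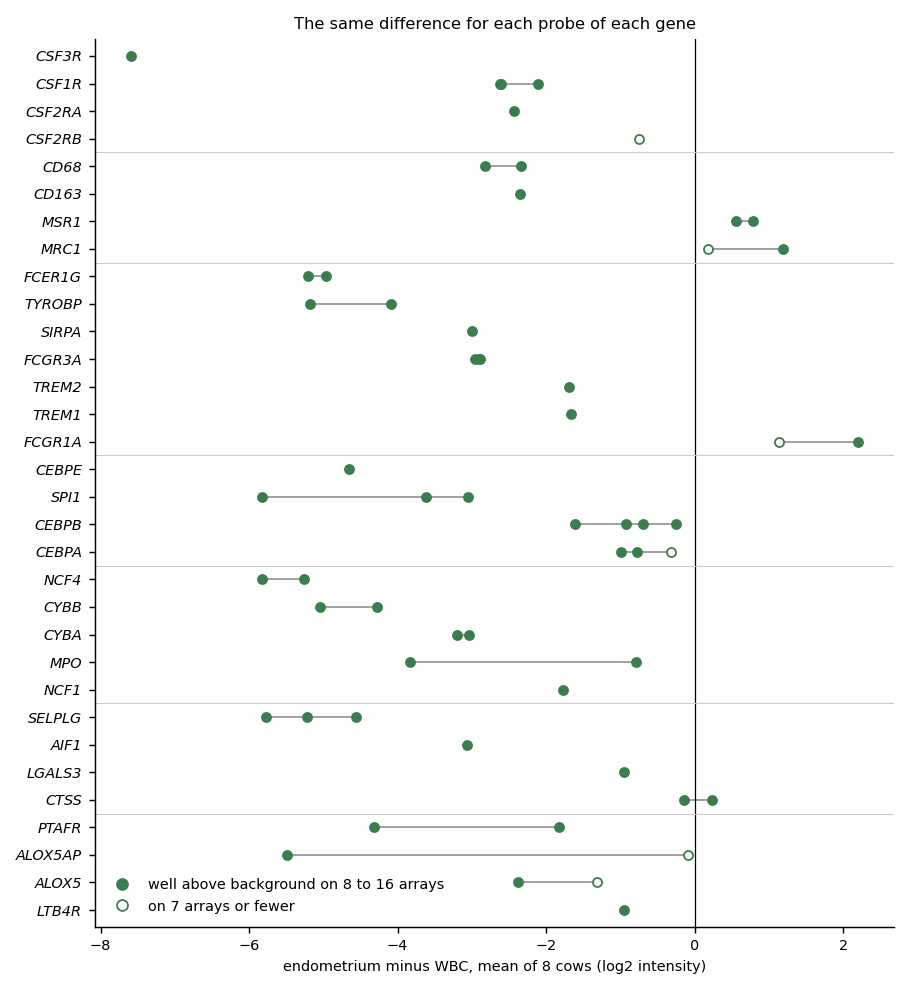
Endometrium minus WBC (log2 intensity) for each of the 59 probes, by gene, with filled points for probes well above background on at least 8 of the 16 arrays and open points for the others. The points of 1 gene lie on the same side of 0 for 19 of the 20 genes with several probes, and those of MPO and ALOX5AP are the farthest apart.

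Of 34 partner genes that work with the members, 32 were measured. Endometrial means were higher in SCE cows for 24 and lower for 8, the median difference was 0.11, and none passed the adjusted test. The ligands CSF1, CSF2 and CSF3 and the second CSF1R ligand IL34 differed by 0.21, 0.04, 0.24 and 0.20 in endometrium. CSF2 and CSF3 were well above background on no endometrium array. The adhesion molecule SELE, which endothelium shows to rolling leukocytes, measured 6.47, 8.14, 6.19 and 7.24 in healthy and 5.89, 5.70, 6.13 and 5.78 in SCE endometrium. The groups did not overlap, and 0 of the 4 SCE arrays and 3 of the 4 healthy arrays read it well above background. With the SCE arrays not well above background, it was at least 2.18-fold higher in healthy cows. SELE passed unadjusted TREAT, as 0.376% of all gene names did in the endometrium, and not the adjusted one (adjusted p = 1). The exact permutation p was 0.0286, and 0.774% of all gene names parted the groups with SCE lower in the endometrium. ITGB2, the common chain of the leukocyte integrins, had higher values in every SCE cow than in any healthy cow in WBC (11.84, 11.94, 12.03 and 11.99 in healthy, 12.12, 12.16, 12.12 and 12.50 in SCE cows), by 0.27 (0.001 to 0.55). It passed neither unadjusted nor adjusted TREAT (adjusted p = 1), and 1.33% of all gene names parted the groups in WBC.

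Between the tissues, 23 partners were lower and 4 higher in endometrium (30.5% and 22.4% of all gene names). Those lower included the kinases LYN (-5.54) and SYK (-4.95). Those higher were IL34 (1.15), ICAM1 (1.32) and VCAM1 (4.19), which stromal and endothelial cells also make, and GPNMB, a glycoprotein of macrophages and of other cells. GPNMB was well above background on all 8 endometrium arrays and on no WBC array, which made it at least 70.6-fold higher in endometrium.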

How the data were processed

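RNA of 8 cows was measured on 16 one-colour Agilent bovine arrays, 1 per cow and tissue. The authors scanned the arrays and extracted spot intensities with Agilent Feature Extraction 10.10.1.1, and the deposited intensity columns of the scanner files were used here. The authors' deposited table of normalized intensity differed from quantile-normalized scanner medians by a median of 0.0415%, and it was used as an alternative. Control spots and spots marked as outliers (190 to 465 of 52689 per array) were left out, the median signal was taken to log2, and arrays were quantile normalized. The normalized log2 values of the spots were then averaged per probe, and those of the probes per gene name.

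Models were fitted over all gene names with limma 3.58.1 in R 4.3.3, by TREAT at 1.2-fold with Benjamini-Hochberg adjustment at 0.05, on 8 arrays for SCE minus healthy within a tissue and on 16 arrays in 4 groups for the tissue comparison and the difference between tissues. Single genes were also tested by a two-sided exact permutation test over cows. The code was tested on simulated data. The number of arrays limits the precision. "Well above background" is the call of the scanner software, and "at least" marks a bound for a gene without that call in a group. Such a bound is taken from group means and leaves out the spread of the cows.

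Tissues pair by cow, since the same animals gave both samples. The correlation of the deviations of WBC and endometrium of a cow from their group means, over 26296 gene names, lay between -0.22 and 0.10, and the cow as a block was an alternative. The members and lists were chosen with earlier results of these data known. Values on every array are given for members past unadjusted TREAT, members whose groups did not overlap, and the 6 largest differences in each tissue and in the difference between tissues. Partners are named under the first 2 of these rules, and other genes named were chosen after their values were seen. The partner lists were growth factor ligands, oxidase and cytosolic partners, integrins and selectins, and other myeloid surface and lipid pathway genes. Marker lists were for leukocytes, T cells, B cells, plasma cells, epithelium, stroma, smooth muscle, endothelium, erythroid cells and platelets. The alternatives tried were leaving out each cow, the cow or the slide row as a block, a single fit of all arrays, a threshold of 0, a trended robust prior, each tissue normalized by itself, normexp correction with an offset of 50, scaling of the processed signal to its 75th percentile, the brightest probe, probes well above background, and names matched through RefSeq. Probe coordinates follow the file headers, and exon and UTR annotation was not used here. The result for 1 partner gene is not reported here.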

Additional observations from a re-analysis of the deposited data

Results flagged for a closer look

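In 6 of 128 groups of 4 arrays (32 members in 4 groups), 1 array lay apart from the other 3 by Dixon's ratio of the gap to the range, above its 95% critical value for 4 samples. Chance alone gives about 1 in 20 groups. In WBC of healthy cows, cow 883 was high for CSF2RB (ratio 0.916, 7.55 against 6.28 in the next cow) and low for FCGR1A (ratio 0.969, 5.65 against 6.03). Cow 841 of the same group was high for CEBPE (ratio 0.836, 11.9 against 10.4) and low for NCF4 (ratio 0.837, 12.4 against 13.1). In endometrium of SCE cows, cow 833 was high for CEBPB (ratio 0.983, 8.65 against 7.76) and for NCF1 (ratio 0.858, 13.9 against 13.1). CSF2RB was well above background on 1 of these 4 arrays and FCGR1A on none.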

How the results depend on the processing

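No member passed the adjusted test between SCE and healthy cows, or for the difference between tissues, under any alternative run. In WBC, the number of members past unadjusted TREAT was 1 as reported, 0 with the signal scaled to the 75th percentile, 0 with all 16 arrays in 1 fit, and 2 (CSF1R and FCGR3A) at a threshold of 0, and with the brightest probe the single gene was CSF1R, not FCGR3A. At a threshold of 0 the difference between tissues had 1 (CSF2RA). Members whose groups did not overlap in WBC were 1 higher (CSF1R) with each tissue normalized by itself, with 75th percentile scaling and with the brightest probe, and 1 lower (ALOX5AP) with normexp. Leaving out single cows gave 0 to 1 members past unadjusted TREAT in WBC and 0 to 1 in endometrium, 0 to 2 not overlapping and higher in WBC, 0 to 1 lower in WBC, 0 to 1 lower in endometrium, and 1 to 3 higher and 26 to 28 lower in endometrium than in WBC. Signs turned for LTB4R between tissues (0.043, each tissue normalized by itself) and for CTSS between tissues (-0.27 with 75th percentile scaling, -0.14 with the brightest probe, -0.21 to 0.40 without single cows). They also turned without single cows for CEBPE in WBC (-0.57 to 0.090), FCGR3A in endometrium (-0.034 to 0.54) and CEBPA in endometrium (-0.036 to 0.55). The median over members also turned, from -0.11 to 0.10 in endometrium and -0.10 to 0.030 in WBC. The causes were not tested. With the cow as a replicate block, MSR1 passed between tissues (adjusted p = 0.0456) and CEBPA did not (adjusted p = 0.0527), which changed the members higher from 2 to 3 and lower from 28 to 27, and the block changed no other call. Over all gene names, those past unadjusted TREAT were 99 in endometrium, 24 in WBC and 100 for the difference between tissues, with 75th percentile scaling 206, 100 and 196, and at a threshold of 0 500, 410 and 461. With all arrays in 1 fit the endometrium had 252. Without single cows these counts ran from 74 to 425, 22 to 275 and 70 to 422, each highest without SCE cow 846 (endometrium and difference) or 833 (WBC), and without cow 846 the difference between tissues had 2 genes past adjusted TREAT, neither a member. Intensity limits the genes not well above background: CSF2RB was so on 2 of 16 arrays.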

Other observations

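CSF2, which encodes GM-CSF, was read at 9.01 in WBC of SCE cow 846, against 5.28 to 5.62 in WBC of the other 7 cows. Markers of other cells differed between the groups in endometrium without passing the adjusted test: 8 of 8 T cell markers were higher in SCE cows (median 0.25), 4 of 4 B cell markers (0.25), 5 of 7 epithelial (0.63), 5 of 6 endothelial (0.29), 4 of 5 platelet (0.14), 3 of 6 erythroid (0.029), 2 of 3 leukocyte (0.15) and 1 of 3 plasma cell markers (-0.059), and 0 of 7 stromal (-0.39) and 0 of 6 smooth muscle markers (-0.33). Of all gene names, 13321 of 26361 were higher in SCE endometrium. The endothelial count rests on SCE cow 833, which was highest for 6 of 6 of these markers. The summed endothelial intensity was 4424, 4006 and 3931 in the other SCE cows and 3909 to 6541 in healthy cows. Its median was lower in SCE cows (4215 against 5137). The B cell sum was 8360 in cow 833, which was highest for 2 of the 4 markers. It was 5381 to 5556 in the other SCE cows and 5057 to 6320 in healthy cows. Single cows also weighed on the epithelial and stromal markers. Healthy cow 877 was lowest for 6 of the 7 epithelial markers, with a sum of 5491 against 11126 to 33585 in the other 7 cows. SCE cow 833 was lowest for 5 of the 7 stromal markers (sum 39561), whereas SCE cow 846 had the highest stromal sum (261960). In WBC the summed platelet marker intensity was 56765 in SCE cow 833, against 19806 to 36818 in the other 7 cows. That cow was highest for 1 of the 5 platelet markers and lowest for 2, so the sum does not show a rise shared by the markers. The WBC erythroid sum was 387260 in healthy cow 883, against 84831 to 242640 in the other 7 cows. Cow 883 was highest for 3 of the 6 erythroid markers. The part of these markers in the values of the members was not tested.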
